A study of Mus musculus with 32 samples.

Results

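The 10 cadherin genes Cdh1, Cdh2, Cdh3, Cdh4, Cdh6, Cdh10, Cdh11, Cdh13, Cdh15 and Cdh19 were followed through 32 primary mouse melanomas, to see how each was expressed in the tumours and whether another cadherin rose where Cdh1, the gene of E-cadherin, had been targeted. They were chosen by gene symbol and are 10 of the 50600 genes measured. RNA of each tumour was sequenced after selection of polyadenylated transcripts. All tumours came from mice with the genotype Tyr::NrasQ61K; Cdkn2a-/+; Cdh1F/F, in which an activated NRAS (Q61K) is expressed from the tyrosinase promoter of pigment cells, the tumour suppressor gene Cdkn2a is heterozygous, and Cdh1 is floxed on both alleles. Ecad tumours carried no Cre (written °/°), and ΔEcad tumours are described in the methods as carrying Tyr::CreA/°, a Cre recombinase expressed from the same promoter, where the sample labels have Tyr::NRAS/° instead. There were 8 tumours in each of 4 groups, Ecad male, Ecad female, ΔEcad male and ΔEcad female, and the ages of the mice were not given in the sources used here.

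Cadherins are transmembrane proteins that hold cells together in the presence of calcium, mostly by binding a cadherin of the same kind on the neighbouring cell, and their cytoplasmic tails bind catenins that link them to the actin cytoskeleton. In skin, E-cadherin and P-cadherin (Cdh3) join keratinocytes to each other, and E-cadherin joins melanocytes to keratinocytes. Melanoma is a tumour in which a change from E-cadherin to N-cadherin (Cdh2) is a textbook observation. Because Tyr-driven Cre acts in the pigment lineage, keratinocytes and other cells within a ΔEcad tumour would keep an intact Cdh1.

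Of the type I cadherins, Cdh1 (ENSMUSG00000000303, chromosome 8, 106603351 to 106670246, GRCm38) and Cdh3 (chromosome 8, 106510891 to 106557297) are neighbours in the genome. Cdh15 (chromosome 8, 122847966 to 122867397) lies further along the same chromosome, while Cdh2 is on chromosome 18 (16588877 to 16809246) and Cdh4 on chromosome 2 (179442431 to 179899373). Of the type II cadherins, Cdh6 (13028701 to 13173675) and Cdh10 (18818947 to 19014236) are on chromosome 15, Cdh11 is on chromosome 8 (102632095 to 102785642) and Cdh19 is on chromosome 1 (110888326 to 110977584). Cdh13 (chromosome 8, 118283733 to 119324921) encodes T-cadherin, which has cadherin repeats but is held in the membrane by a lipid anchor and has no catenin-binding tail, so it is classical in its extracellular part only. Cdh19 overlaps the annotated genes Gm38255, with up to 302 counts in a tumour, and Gm36944, with up to 56, and its values are uncertain to that extent. For the other members, no overlapping gene had more than 1 count in any tumour.

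Total counts ranged from 24036333 to 63923086 per tumour. The library labelled ΔEcad male 2 had 0 counts over 4 genes of the Y chromosome and 6.41 TPM (a level scaled for transcript length and for the total of the library) of Xist, and so goes against its label. It was kept among the ΔEcad males in every comparison, and without it edgeR again called 0 of 10 members in all 6 comparisons, with a log2 fold change between the genotypes in males of -3.19 for Cdh1 (adjusted p = 0.606) and 2.27 for Cdh11 (adjusted p = 0.648). ΔEcad male 7 had almost no melanocytic RNA, with 4.98 TPM of Dct against at least 1466 TPM in the other 31 tumours, and ΔEcad female 3 had 0.02 TPM of the endothelial cadherin gene Cdh5. Keratinocyte markers (8 genes, among them Krt5 and Krt14) differed widely: their score, the mean over the list of log2 CPM (counts scaled to the library total), had a median of 7.43 in Ecad males and 2.65 in ΔEcad males, and of -3.30 in Ecad and 7.48 in ΔEcad tumours of females. The values are of whole tumours, in which fewer cells of a type and less RNA per cell cannot be told apart.

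Cdh19 and Cdh1 made up most of the cadherin RNA. Over the 32 tumours, the median level was 65.3 TPM for Cdh19, 42.4 TPM for Cdh1, 8.87 TPM for Cdh2, 5.33 TPM for Cdh13, 3.45 TPM for Cdh11 and 2.37 TPM for Cdh3. The other members were low, with medians of 0.60 TPM for Cdh4, 0.345 TPM for Cdh6, 0.175 TPM for Cdh15 and 0.04 TPM for Cdh10. Of the 9 pairs of neighbours in this order, Cdh3 above Cdh4 was the pair that differed beyond the spread between tumours (higher in 27 of 32 tumours, mean difference 1.87 on the log2(TPM + 0.1) scale, permutation test with 100000 sign flips, two-sided, adjusted p = 0.0009 over 9 pairs). For the other 8 pairs the adjusted p ranged from 0.0508 to 0.942, so that the order of Cdh19 and Cdh1, for example, was not resolved (Cdh19 higher in 20 of 32 tumours).

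**Figure D1:**
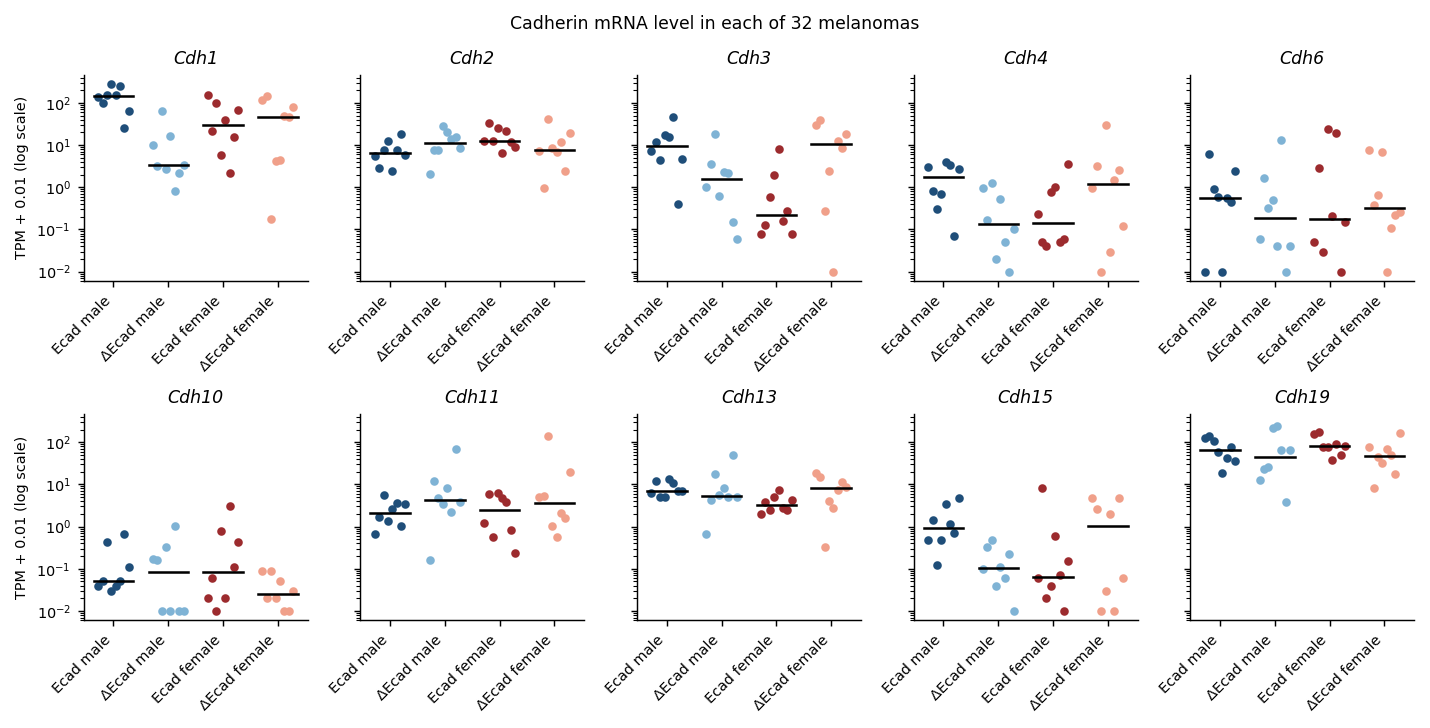
TPM of each cadherin in each tumour, plotted as TPM + 0.01 on a log axis, with 1 point per tumour, 8 per group, and a line at the group median. Cdh1 in ΔEcad males lies mostly between 0.79 and 16.7 TPM, with ΔEcad male 3 at 65.2 TPM, whereas Ecad males lie between 25 and 282 TPM.

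Cdh1 was the most abundant of the 10 cadherins in 6 of 8 Ecad males and 1 of 8 ΔEcad males, and in 2 of 8 Ecad and 3 of 8 ΔEcad tumours of females. Cdh19 led in 18 of the 32 tumours, among them 6 of the 8 ΔEcad males. The remaining tumours, ΔEcad male 7 and ΔEcad female 3, were led by Cdh11, which made up 49.31% and 61.04% of their cadherin RNA. Among males, Cdh1 was 52.7% ± 19.0 of the cadherin RNA of Ecad and 12.6% ± 17.9 of that of ΔEcad tumours, and among females it was 26.1% ± 20.2 and 28.6% ± 23.8 (SD, n = 8 each). Without Cdh1, the other 9 members summed to 112 ± 39.9 TPM in Ecad males and 126 ± 95.1 TPM in their ΔEcad counterparts, and to 127 ± 57.0 TPM and 124 ± 72.0 TPM in the corresponding females (SD over 8 tumours each). The means of this sum differed by less than the SD of any group.

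**Figure D2:**
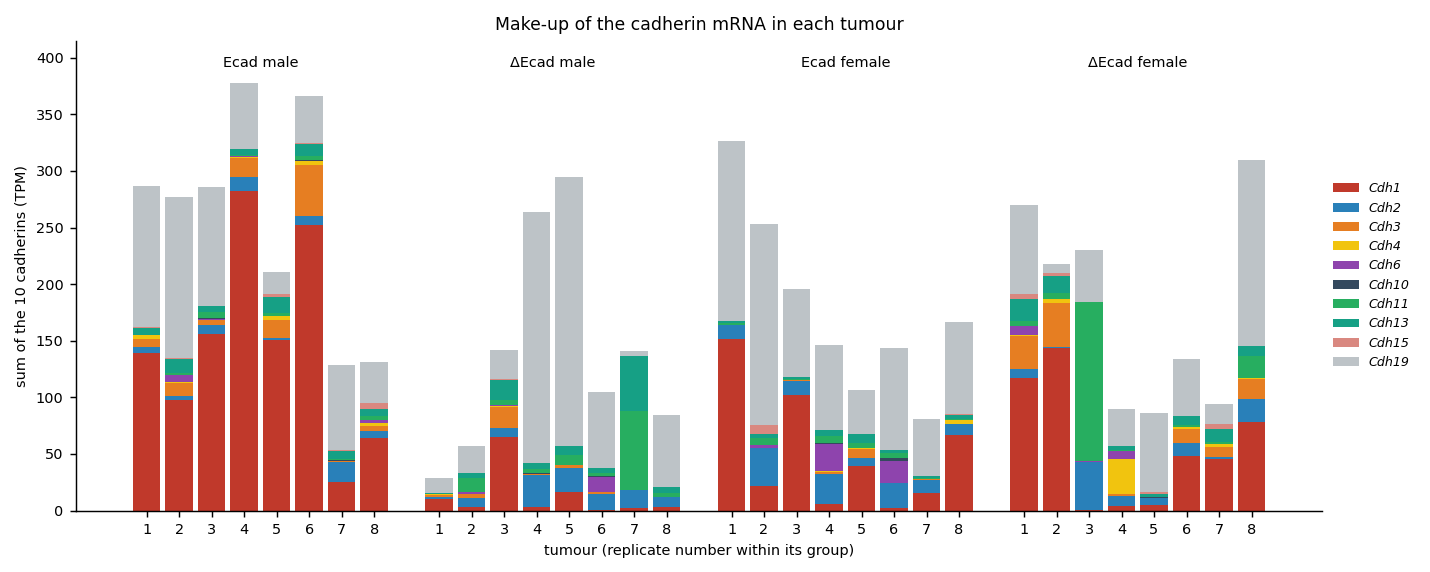
Stacked TPM of the 10 cadherins in each tumour, grouped by genotype and sex, with the replicate number of each tumour below its bar. Cdh1 (red) is prominent in most Ecad males and thin in most ΔEcad males, Cdh19 (grey) is present in every tumour, and Cdh11 (green) fills most of ΔEcad female 3 and a large part of ΔEcad male 7.

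Cdh1, whose protein is the main cadherin of epithelia and of melanocytes in the epidermis, was examined first because it is the targeted gene. Its level in Ecad males 1 to 8 was 139, 98.1, 156, 282, 150.3, 252, 25 and 64.1 TPM, and in ΔEcad males 1 to 8 it was 10.2, 3.23, 65.2, 2.75, 16.7, 0.79, 2.17 and 3.34 TPM. In females the values were 151, 21.55, 102, 5.96, 39.6, 2.16, 15.2 and 66.85 TPM in Ecad tumours 1 to 8, and 118, 143, 0.17, 4.27, 4.51, 48.2, 45.15 and 78.35 TPM in ΔEcad tumours 1 to 8. Of the ΔEcad males, 7 of 8 were below the lowest Ecad male, and ΔEcad male 3 was within the Ecad range. The female groups overlapped almost entirely, and 1 ΔEcad female was below the lowest Ecad female. Reads were counted per gene, so RNA from an allele that has lost some exons would still be counted.

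In males, the edgeR log2 fold change of Cdh1 was -3.33 (SE 0.96, 95% interval -5.28 to -1.38, adjusted p = 0.365), with 8 of 8 ΔEcad tumours below the Ecad median. It did not pass the threshold over the 17717 genes tested, although DESeq2 placed it at an adjusted p of 0.0431. In females, the log2 fold change was -0.002 (SE 0.87, 95% interval -1.78 to 1.78, edgeR adjusted p = 0.999). With both sexes together it was -1.66 (SE 0.63, edgeR adjusted p = 0.416), with 14 of 16 ΔEcad tumours below the Ecad median. The keratinocyte scores of ΔEcad females 1 to 8, in the order in which their Cdh1 is given above, were 9.44, 9.95, -3.28, -4.48, -0.954, 7.61, 8.51 and 7.35. With the keratinocyte and melanocytic scores as covariates, the estimate was -2.78 in females (SE 0.83, edgeR adjusted p = 0.325), -2.89 in males (SE 0.74, adjusted p = 0.280) and -2.84 in both sexes together (SE 0.54, adjusted p = 0.0504), which still missed the threshold.

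A gene was called where edgeR gave an adjusted p below 0.05 with a log2 fold change beyond 1 in either direction. Between ΔEcad and Ecad tumours of both sexes together 0 of 10 members were called, against 2 of 17717 genes (0.0113%), and 4 of 10 had an unadjusted p under 0.05, against 9.88% of all genes tested. In females 0 of 10 were called, against 213 genes (1.2%), and 5 of 10 had an unadjusted p under 0.05, against 15.3%. In males 0 of 10 were called, as were 0 of all genes (0.0%), and 3 of 10 had an unadjusted p under 0.05, against 10.2%. DESeq2, which called more genes, called 0 of 10 members in both sexes together (against 0.373% of all genes), 2 of 10 in females (Cdh3 and Cdh10, against 7.23%) and 1 of 10 in males (Cdh1, against 0.119%). No member had genotype groups without overlap in TPM, against 0.0% of all genes in both sexes together, 0.0339% in females and 0.0282% in males. The median log2 fold change of the members was -0.09 in both sexes together, 0.46 in females and 0.38 in males, and that of all genes tested was 0.07, -0.02 and 0.11.

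**Figure D3:**
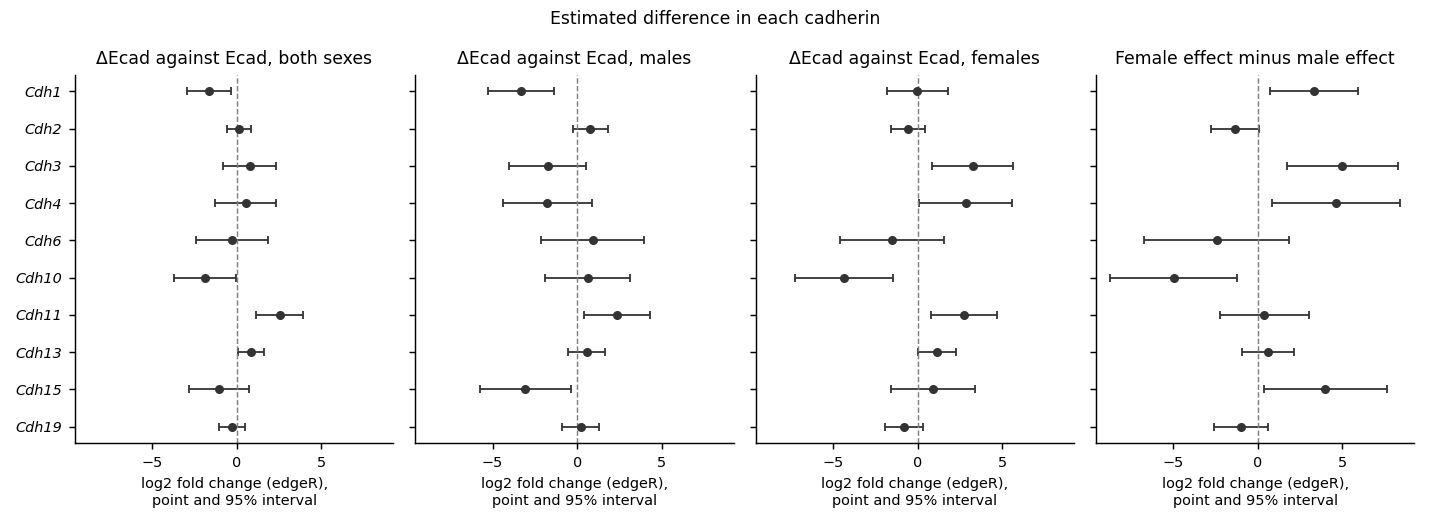
Log2 fold change of each cadherin, with its 95% interval from edgeR, in 4 panels on a common axis: ΔEcad against Ecad tumours in both sexes, in males and in females, and the female effect minus the male effect. The interval of Cdh11 is above 0 in the first 3 panels and that of Cdh1 is below 0 in the panels of both sexes and of males. Other intervals also exclude 0, among them those of Cdh10 and Cdh13 in both sexes and of Cdh3, Cdh4, Cdh10 and Cdh13 in females. No member passed the adjusted threshold in any panel.

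N-cadherin (Cdh2), the cadherin of neural tissue and mesenchyme, ranged in males from 2.43 to 18.0 TPM in Ecad tumours (median 6.65) and from 2.07 to 28.8 TPM in ΔEcad tumours (median 11.035). In females it ranged from 6.45 to 33.4 TPM in Ecad tumours (median 12.7) and from 0.94 to 42.5 TPM in ΔEcad tumours (median 7.755). The genotypes overlapped in both sexes. The log2 fold change was 0.79 in males (SE 0.50, edgeR adjusted p = 0.572) and -0.56 in females (SE 0.50, edgeR adjusted p = 0.674), and in both sexes together it was 0.11 with a 95% interval of -0.60 to 0.83 (edgeR adjusted p = 0.951). In males, where 7 of 8 ΔEcad tumours were above the Ecad median, the 95% interval was -0.23 to 1.80, and in females, where 6 of 8 were below it, the interval was -1.57 to 0.45. The female value was -1.10 without ΔEcad female 3.

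P-cadherin (Cdh3), a cadherin of basal keratinocytes and hair follicles, ranged in females from 0.07 to 8.03 TPM in Ecad tumours (median 0.21) and from 0 to 39.2 TPM in ΔEcad tumours (median 10.3). In males it ranged from 0.40 to 45.6 TPM in Ecad tumours (median 9.68) and from 0.05 to 18.3 TPM in ΔEcad tumours (median 1.605). In females 5 of 8 ΔEcad tumours were above the highest Ecad tumour, while ΔEcad female 5 had 0 counts, which allows up to 3 counts (for this and other zeros, counting error only). Its log2 fold change was 3.25 in females (SE 1.18, edgeR adjusted p = 0.139), where 7 of 8 ΔEcad tumours were above the Ecad median, and -1.74 in males (SE 1.11, edgeR adjusted p = 0.575), which was -2.82 without ΔEcad male 3. DESeq2 called the female difference (3.35, adjusted p = 0.0167), and edgeR called it without Ecad female 5 (4.85, adjusted p = 0.0337). The share of all genes called without that tumour is not given here. With the keratinocyte and melanocytic scores as covariates, the female estimate was 1.17 (SE 0.80, edgeR adjusted p = 0.762).

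R-cadherin (Cdh4), known from the retina and kidney, ranged in females from 0.03 to 3.54 TPM in Ecad tumours (median 0.135) and from 0 to 30.3 TPM in ΔEcad tumours (median 1.20). In males it ranged from 0.06 to 3.94 TPM in Ecad tumours (median 1.72) and from 0 to 1.28 TPM in ΔEcad tumours (median 0.125). ΔEcad female 4, at 30.3 TPM, stood apart from the next highest ΔEcad female at 3.11 TPM. The log2 fold change was 2.84 in females (SE 1.34, edgeR adjusted p = 0.297) and -1.78 in males (SE 1.29, edgeR adjusted p = 0.628). The female estimate was 0.67 without ΔEcad female 4 and 4.32 without Ecad female 8, so that it depended on single tumours.

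M-cadherin (Cdh15), a cadherin of muscle precursor cells, ranged in males from 0.11 to 4.66 TPM in Ecad tumours (median 0.91) and from 0 to 0.46 TPM in ΔEcad tumours (median 0.095). In females it ranged from 0 to 8.09 TPM in Ecad tumours (median 0.055) and from 0 to 4.68 TPM in ΔEcad tumours (median 0.995). In males 5 of 8 ΔEcad tumours were below the lowest Ecad tumour, and the female groups overlapped. The estimated log2 fold change was -3.07 in males (SE 1.32, edgeR adjusted p = 0.448) and 0.92 in females (SE 1.22, edgeR adjusted p = 0.806). Ecad female 2, the highest tumour at 8.09 TPM, decided the female estimate, which was 3.84 without it (SE 1.25, edgeR adjusted p = 0.111).

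Among the type II members, OB-cadherin (Cdh11), a cadherin of mesenchymal cells such as osteoblasts and fibroblasts, had the smallest p in both sexes together. In males it ranged from 0.66 to 5.72 TPM in Ecad tumours (median 2.14), and ΔEcad males 1 to 8 had 0.15, 11.99, 4.76, 3.42, 8.29, 2.21, 69.3 and 3.90 TPM. In females it ranged from 0.23 to 6.19 TPM in Ecad tumours (median 2.53), and ΔEcad females 1 to 8 had 4.98, 5.29, 140.2, 1.05, 0.56, 2.10, 1.60 and 20.03 TPM. The highest values were thus those of ΔEcad female 3, ΔEcad male 7, ΔEcad female 8 and ΔEcad male 2. ΔEcad male 5, at 8.29 TPM, was also above every Ecad tumour. Of the 16 ΔEcad tumours, 11 were above the Ecad median, and both groups overlapped. The log2 fold change was 2.54 (SE 0.68, 95% interval 1.16 to 3.92, edgeR adjusted p = 0.221). It was 2.34 in males (SE 0.95, edgeR adjusted p = 0.441) and 2.73 in females (SE 0.96, edgeR adjusted p = 0.126). Leaving out 1 tumour moved these values, to 1.21 in males without ΔEcad male 7 and to 0.64 in females without ΔEcad female 3. In both sexes together DESeq2 gave 1.45 (adjusted p = 0.175), and edgeR gave 1.49 without ΔEcad female 3. Without ΔEcad male 2, ΔEcad male 7 and ΔEcad female 3, a choice made after seeing the data, the value was 0.65 (SE 0.48, edgeR adjusted p = 0.756). Fibroblast markers were at a score of 9.86 in ΔEcad male 7, the highest of its group, where the group median was 6.90, and at 7.08 in ΔEcad female 3, below its group median of 7.40. The part of other cells in these values was not tested.

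K-cadherin (Cdh6), known from the kidney and the neural crest, was high in single tumours of every group. It ranged from 0 to 6.15 TPM in Ecad males, from 0 to 24.4 TPM in Ecad females, from 0 to 13.04 TPM in ΔEcad males and from 0 to 7.68 TPM in ΔEcad females, with group medians between 0.17 and 0.56 TPM. It was at or under 3 counts in 11 of 32 tumours. As a log2 fold change, the difference was -0.31 in both sexes together (SE 1.05, 95% interval -2.44 to 1.82, edgeR adjusted p = 0.954), an interval that covers both a rise and a fall of over 1 on the log2 scale.

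Cdh10, a neural type II cadherin, was near the limit of detection, at or under 3 counts in 14 of 32 tumours. In females it ranged from 0 to 3.01 TPM in Ecad tumours (median 0.075), with 0.78 and 0.43 TPM in females 4 and 8 and the highest value in female 6, and from 0 to 0.08 TPM in ΔEcad tumours (median 0.015). In males it ranged from 0.02 to 0.66 TPM in Ecad tumours (median 0.04) and from 0 to 1.01 TPM in ΔEcad tumours (median 0.075). The log2 fold change was -4.35 in females (SE 1.41, edgeR adjusted p = 0.0927), where 6 of 8 ΔEcad tumours were below the Ecad median, and 0.61 in males (SE 1.23, edgeR adjusted p = 0.877). The female value was -2.65 without Ecad female 6. DESeq2 called the female difference (-4.37, adjusted p = 0.00946), and with the marker scores as covariates it was -1.20 in edgeR (SE 1.82, adjusted p = 0.926).

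Cdh19, a type II cadherin of the neural crest and the Schwann cell lineage, was present in all tumours. In males it ranged from 18.8 to 142 TPM in Ecad tumours (median 66.6) and from 3.77 to 238 TPM in ΔEcad tumours (median 44.6). In females it ranged from 38.3 to 177 TPM in Ecad tumours (median 79.8) and from 8.31 to 164 TPM in ΔEcad tumours (median 48.1). The lowest value was that of ΔEcad male 7, the tumour with almost no melanocytic RNA. Its log2 fold change was 0.20 in males (SE 0.55, edgeR adjusted p = 0.914), -0.79 in females (SE 0.55, edgeR adjusted p = 0.553) and -0.30 in both sexes together (95% interval -1.08 to 0.49, edgeR adjusted p = 0.849).

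T-cadherin (Cdh13), known from blood vessels and smooth muscle, ranged in females from 1.95 to 7.40 TPM in Ecad tumours (median 3.25) and from 0.32 to 18.8 TPM in ΔEcad tumours (median 8.13). In males it ranged from 4.91 to 13.7 TPM in Ecad tumours (median 6.905) and from 0.65 to 49.0 TPM in ΔEcad tumours (median 5.265). In females 5 of 8 ΔEcad tumours were above the highest Ecad tumour, and the lowest was ΔEcad female 3. The log2 fold change was 1.15 in females (SE 0.54, edgeR adjusted p = 0.295), 0.56 in males (SE 0.53, edgeR adjusted p = 0.712) and 0.86 in both sexes together (SE 0.38, edgeR adjusted p = 0.468). Without ΔEcad male 7, the highest tumour, it was -0.13 in males and 0.51 in both sexes together. Without the 3 libraries named above, the female value was 1.33 (SE 0.39, edgeR adjusted p = 0.0558) and the male value was -0.10 (SE 0.41, adjusted p = 0.952).

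Whether the genotype difference itself differed between the sexes was tested by the interaction, the log2 fold change in females minus that in males. In edgeR 0 of 10 members passed the adjusted threshold, as did 0 of all genes (0.0%), and 5 of 10 had an unadjusted p under 0.05, against 17.7% of all genes. Cdh3, the member with the smallest p, had an interaction of 5.00 (SE 1.62, edgeR adjusted p = 0.0898), and Cdh1 had 3.32 (SE 1.27, edgeR adjusted p = 0.154). Cdh4 had 4.62 (SE 1.85, edgeR adjusted p = 0.175), Cdh15 had 3.99 (SE 1.79, edgeR adjusted p = 0.232) and Cdh10 had -4.96 (SE 1.84, edgeR adjusted p = 0.140). Single tumours moved these values, to 2.45 for Cdh4 without ΔEcad female 4, to 6.91 for Cdh15 without Ecad female 2 and to -3.26 for Cdh10 without Ecad female 6. DESeq2 called 2 of 10 members, Cdh3 (5.11, adjusted p = 0.00971) and Cdh1 (3.40, adjusted p = 0.0486), against 6.91% of all genes, and edgeR called both without ΔEcad male 3 (6.08 and 4.30, adjusted p = 0.0313 and 0.0413) and Cdh3 without Ecad female 5 (6.60, adjusted p = 0.0351). The share of all genes called in these edgeR fits without 1 tumour is not given here, so the calls have no background beside them. With the keratinocyte and melanocytic scores as covariates, the interaction was 1.92 for Cdh3 (SE 1.15, edgeR adjusted p = 0.689) and 0.11 for Cdh1 (SE 1.06, edgeR adjusted p = 0.990).

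Females and males were also compared within each genotype. Among Ecad tumours 0 of 10 members were called in edgeR, against 9 genes (0.0508%), and 2 of 10 had an unadjusted p under 0.05, against 16% of all genes. Cdh3 was lower in 8 of 8 Ecad females than the male median (log2 fold change -3.23, SE 1.18, adjusted p = 0.167 in edgeR), and DESeq2 called it alone of the 10 (-3.30, adjusted p = 0.0253, against 5.77% of all genes). Cdh2 was higher in 7 of 8 Ecad females than the male median, at 1.09 on the log2 scale (SE 0.50, adjusted p = 0.273 in edgeR). Cdh13 was below the lowest Ecad male in 6 of 8 Ecad females (-1.05, SE 0.54, edgeR adjusted p = 0.338). Among ΔEcad tumours 0 of 10 members were called, against 7 genes (0.0395%), and 4 of 10 had an unadjusted p under 0.05, against 8.81% of all genes. No member had sexes without overlap in TPM, against 0.113% of all genes in Ecad and 0.00564% in ΔEcad tumours. DESeq2 called 0 of 10 members in ΔEcad tumours, against 0.135% of all genes. The smallest member p in ΔEcad tumours was that of Cdh4 (3.40, SE 1.37, edgeR adjusted p = 0.520), whose value was 1.23 without ΔEcad female 4.

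The members were next compared with each other across the 32 tumours, on log2 CPM, to see whether another cadherin was high where Cdh1 was low. Of the 9 relations of Cdh1 with another member, 6 passed an adjusted p of 0.05, 4 of them positive and 2 negative. With Cdh2 the relation was negative (Pearson r = -0.531, permutation p = 0.00223, adjusted p = 0.00669, Spearman rho = -0.521, permutation p = 0.00278). Leaving out the 2 tumours whose Cdh1 was farthest from its median gave -0.455, and r was between -0.646 and -0.210 within the 4 groups, where the smallest exact permutation p was 0.0896. With Cdh11 the relation was weaker (r = -0.382, permutation p = 0.0312, adjusted p = 0.0468, rho = -0.188, permutation p = 0.302), and it rested on a few tumours, since r was -0.217 without the 2 farthest and 0.014 without the 3 libraries named above.

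The positive relations of Cdh1 were with Cdh4, Cdh3, Cdh15 and Cdh13. For Cdh4 r was 0.579 (permutation p = 0.00036, adjusted p = 0.00324, rho = 0.569, permutation p = 0.00064), and for Cdh3 it was 0.554 (permutation p = 0.00094, adjusted p = 0.00423, rho = 0.610, permutation p = 0.00019). Without the 2 farthest tumours these were 0.482 and 0.598, and within the groups they ran from 0.209 to 0.847 for Cdh4 and from -0.143 to 0.898 for Cdh3. For Cdh15 r was 0.456 (permutation p = 0.00905, adjusted p = 0.0204, rho = 0.420, permutation p = 0.0173) and for Cdh13 it was 0.419 (permutation p = 0.0174, adjusted p = 0.0313, rho = 0.375, permutation p = 0.0360). The relation with Cdh15 was 0.376 without the 2 farthest tumours, ran from -0.173 to 0.516 within the groups, and did not pass for values centred within groups (r = 0.320, adjusted p = 0.0952). The relation with Cdh13 did not hold without the 2 farthest tumours (r = 0.192), and within the groups it ran from -0.203 to 0.970. It passed for values centred within groups (r = 0.502, adjusted p = 0.00981). With Cdh10 r was -0.304 (permutation p = 0.0921, adjusted p = 0.118, rho = -0.226, permutation p = 0.212) and did not pass over all tumours, but it was negative in all 4 groups (-0.804 to -0.425) and passed for values centred within groups (r = -0.518, adjusted p = 0.00457). With Cdh6 r was -0.205 (permutation p = 0.261, adjusted p = 0.293, rho = -0.119, permutation p = 0.515). With Cdh19, the most abundant of the other members, Cdh1 showed no relation beyond the spread (r = 0.084, permutation p = 0.652, adjusted p = 0.652, rho = 0.062, permutation p = 0.737).

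Of the 36 pairs that do not include Cdh1, 7 passed an adjusted p of 0.05. For values centred within groups, Cdh2 with Cdh4, Cdh3 with Cdh4 and Cdh6 with Cdh10 still passed (adjusted p = 0.00552 each). Cdh13 with Cdh15 (adjusted p = 0.0512), Cdh3 with Cdh13 (0.0631), Cdh2 with Cdh15 (0.0631) and Cdh2 with Cdh3 (0.138) did not. Cdh6 and Cdh10, both type II cadherins of chromosome 15, were positively related (r = 0.559, permutation p = 0.00087, adjusted p = 0.0104, rho = 0.522, permutation p = 0.00246), although both were near 0 counts in many tumours. Their r was 0.415 without the 2 farthest tumours and between 0.268 and 0.766 within the groups. In these pairs, the farthest tumours were those of the member with the lower number. The other positive pairs were Cdh3 with Cdh4 (r = 0.631, permutation p = 0.00012, adjusted p = 0.00216, rho = 0.601, permutation p = 0.00033), Cdh3 with Cdh13 (r = 0.504, permutation p = 0.00251, adjusted p = 0.0181, rho = 0.681, permutation p = 8e-05) and Cdh13 with Cdh15 (r = 0.487, permutation p = 0.00372, adjusted p = 0.0191, rho = 0.518, permutation p = 0.0029). Without the 2 farthest tumours their r was 0.615, 0.460 and 0.512, and within the groups it lay between 0.240 and 0.773, between -0.092 and 0.723 and between 0.331 and 0.689. All 3 negative pairs held Cdh2. Its relation with Cdh4 was the closest (r = -0.634, permutation p = 5e-05, adjusted p = 0.0018, rho = -0.699, permutation p = 1e-05, the smallest possible), with r = -0.605 without the 2 farthest tumours and between -0.682 and -0.504 within the groups. With Cdh15 r was -0.521 (permutation p = 0.00183, adjusted p = 0.0165, rho = -0.549, permutation p = 0.00131), and with Cdh3 it was -0.495 (permutation p = 0.00342, adjusted p = 0.0191, rho = -0.476, permutation p = 0.00621). Without the 2 farthest tumours these were -0.428 and -0.397, and within the groups they lay between -0.749 and 0.250 and between -0.460 and -0.239.

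Because other cells of the skin use these cadherins, each member was set beside the scores of 7 marker lists of 8 genes each. Of the 70 relations, 36 passed an adjusted p of 0.05, 28 of them positive and 8 negative. All 8 genes of each list had a TPM above 0 in at least 1 tumour, but some stayed near 0. Pmp2 of the Schwann list reached at most 0.55 TPM. In the gland epithelium list, Krt7, Krt8, Krt18 and Krt19 had group medians of at most 0.595 TPM. Epcam and Cldn4 of the same list had medians of 37.4 and 29.3 TPM in Ecad males. Points that share a tumour share its library, depth and cell content. Cdh3 followed the keratinocyte score most closely (r = 0.857, rho = 0.832, adjusted p = 0.000233 for both, from the smallest p that the permutations can give, 1e-05). In relations with scores, the 2 farthest tumours were those whose score, not whose cadherin, was farthest from its median. Without the 2 farthest tumours r was 0.879, and within the groups it lay between 0.621 and 0.957. Cdh3 also passed with the gland epithelium (r = 0.796, rho = 0.815) and Schwann scores (r = 0.663, rho = 0.685). Its r passed as well with the fibroblast (0.539), endothelial (0.482) and skeletal muscle scores (0.468). The r of Cdh4 passed with the endothelial (0.514), keratinocyte (0.497), skeletal muscle (0.436), Schwann (0.430) and gland epithelium scores (0.409). The median of Krt5 was 0.125 TPM in Ecad females, 67.1 TPM for ΔEcad males, 1123 TPM for Ecad males and 1829 TPM for ΔEcad females. All 8 keratinocyte markers had their lowest median in Ecad females and their next lowest in ΔEcad males, as had Cdh3. Of the gland epithelium markers, Epcam, Cldn4, Cldn3, Elf3, Krt7 and Krt8 shared this order, while Krt18 and Krt19 did not.

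Cdh1 was also positively related to the keratinocyte score (r = 0.651, permutation p = 7e-05, adjusted p = 0.000612, rho = 0.639, permutation p = 0.00014), and r was 0.619 without the 2 farthest tumours. Within the groups r was 0.855 in Ecad and 0.764 in ΔEcad males, and 0.501 in Ecad and 0.892 in ΔEcad females (exact permutation p = 0.0151, 0.0269, 0.205 and 0.00595). Ecad females 1 and 8 had 151 and 66.85 TPM of Cdh1 at keratinocyte scores of -3.17 and -3.43. The keratinocyte score was not the only score so related, and the relations with the scores were not separated from each other. Cdh1 also passed with the gland epithelium (r = 0.638, rho = 0.637), Schwann (r = 0.609, rho = 0.661) and skeletal muscle scores (r = 0.479, rho = 0.491). With the endothelial score r passed (0.509, adjusted p of r = 0.0128), but rho did not (0.291, adjusted p of rho = 0.183). Cdh2 was negatively related to the keratinocyte score (r = -0.618, permutation p = 0.00014, adjusted p = 0.000891, rho = -0.601, permutation p = 0.00027), with r = -0.573 without the 2 farthest tumours and between -0.624 and -0.400 within the groups, none of which passed an exact permutation p of 0.05 (smallest 0.0998). Cdh2 was as closely related to the skeletal muscle score (r = -0.616, rho = -0.637). It also passed with the gland epithelium (r = -0.532, rho = -0.461), Schwann (r = -0.502, rho = -0.538) and endothelial scores (r = -0.465, rho = -0.537). The part of keratinocytes or other cells in the relation of Cdh1 with Cdh2 was not tested.

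**Figure D4:**
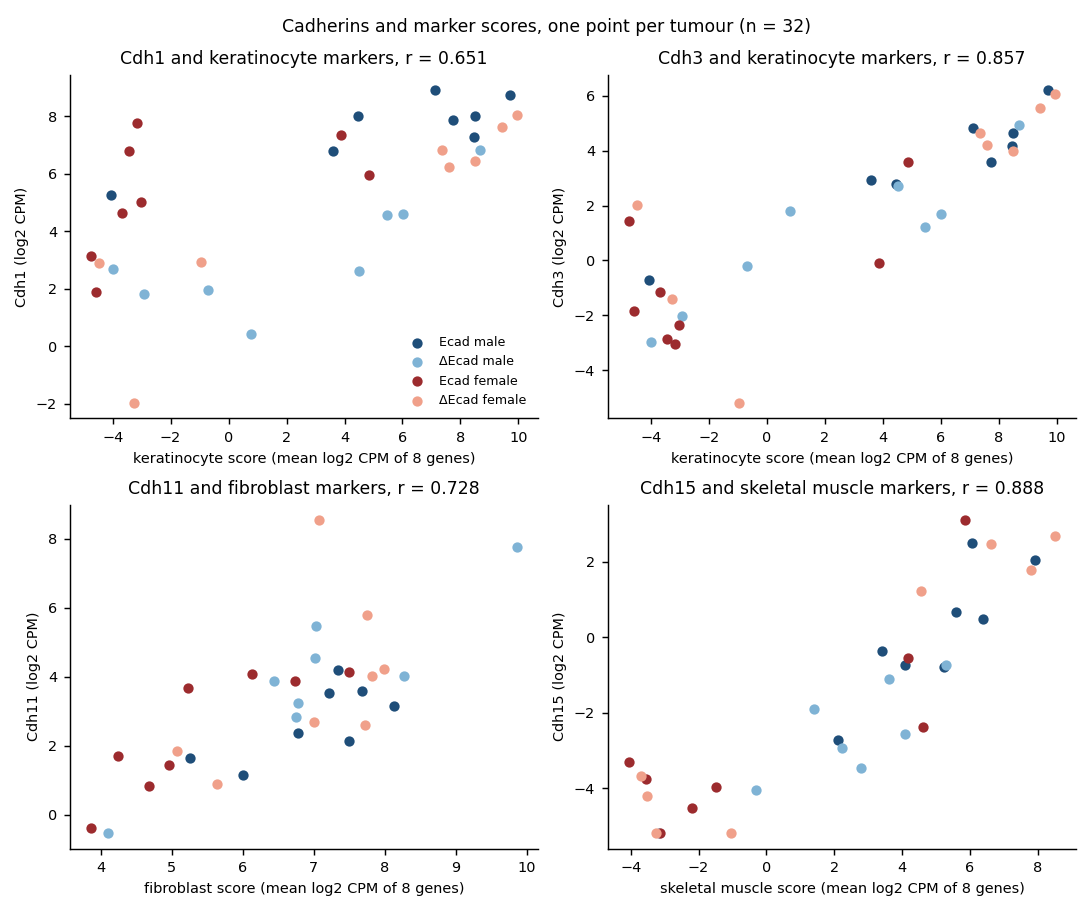
Log2 CPM of Cdh1 and Cdh3 against the keratinocyte score, Cdh11 against the fibroblast score and Cdh15 against the skeletal muscle score, with 1 point per tumour coloured by group. Cdh3 and Cdh15 lie near a line (r = 0.857 and 0.888), while Cdh1 (r = 0.651) has Ecad tumours with high levels at low keratinocyte scores.

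Cdh15 followed the skeletal muscle score (r = 0.888, rho = 0.882, adjusted p = 0.000233 for both, again from the smallest permutation p of 1e-05). Its r was 0.904 without the 2 farthest tumours and between 0.827 and 0.955 within the groups. Cdh15 also passed with the Schwann (r = 0.556, rho = 0.509), keratinocyte (r = 0.469, rho = 0.507) and gland epithelium scores (r = 0.449, rho = 0.432). With the endothelial score its r passed (0.381, adjusted p of r = 0.0391), but rho did not (0.342, adjusted p of rho = 0.103). Cdh11 was related to the fibroblast score (r = 0.728, permutation p = 2e-05, adjusted p = 0.00035, rho = 0.688, permutation p = 6e-05), with r = 0.619 without the 2 farthest tumours and between 0.501 and 0.911 within the groups. Without the 3 libraries named above, which include the tumour with the highest Cdh11, r was 0.764. With the melanocytic score the r of Cdh11 passed and was negative (-0.523, adjusted p of r = 0.0128). Its rho did not pass (-0.254, adjusted p of rho = 0.256), and r was -0.329 without the 3 libraries. Cdh13 was related to the endothelial score (r = 0.735, permutation p = 4e-05, adjusted p = 0.0005, rho = 0.659, permutation p = 9e-05), with r = 0.515 without the 2 farthest tumours and between 0.266 and 0.930 within the groups. It was also related to the fibroblast score (r = 0.658, permutation p = 5e-05, adjusted p = 0.0005, rho = 0.778, permutation p = 2e-05), with r = 0.620 without the 2 farthest tumours and between 0.375 and 0.987 within the groups. Cdh13 also passed with the keratinocyte (r = 0.466, rho = 0.672), gland epithelium (r = 0.549, rho = 0.648) and skeletal muscle scores (r = 0.499, rho = 0.552), with adjusted p of r of 0.0153, 0.00398 and 0.0102. Cdh19 was related to the melanocytic score (r = 0.578, permutation p = 0.00366, adjusted p = 0.0122), but the relation rested on ΔEcad male 7 and the next farthest tumour, since r was -0.025 without them and rho was 0.170 (permutation p = 0.350). Cdh19 was not related to the Schwann score beyond the spread (r = -0.073, permutation p = 0.694, adjusted p = 0.796, rho = -0.087, permutation p = 0.638). By Pearson r, Cdh6 passed with none of the 7 scores and Cdh10 passed with the gland epithelium score alone (r = -0.433, permutation p = 0.014, adjusted p = 0.030, rho = -0.374, rho adjusted p = 0.073). By Spearman rho, both passed with the melanocytic score, Cdh6 at 0.456 (adjusted p = 0.0214, r = 0.341) and Cdh10 at 0.476 (adjusted p = 0.0158, r = 0.366), while r did not pass.

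**Figure D5:**
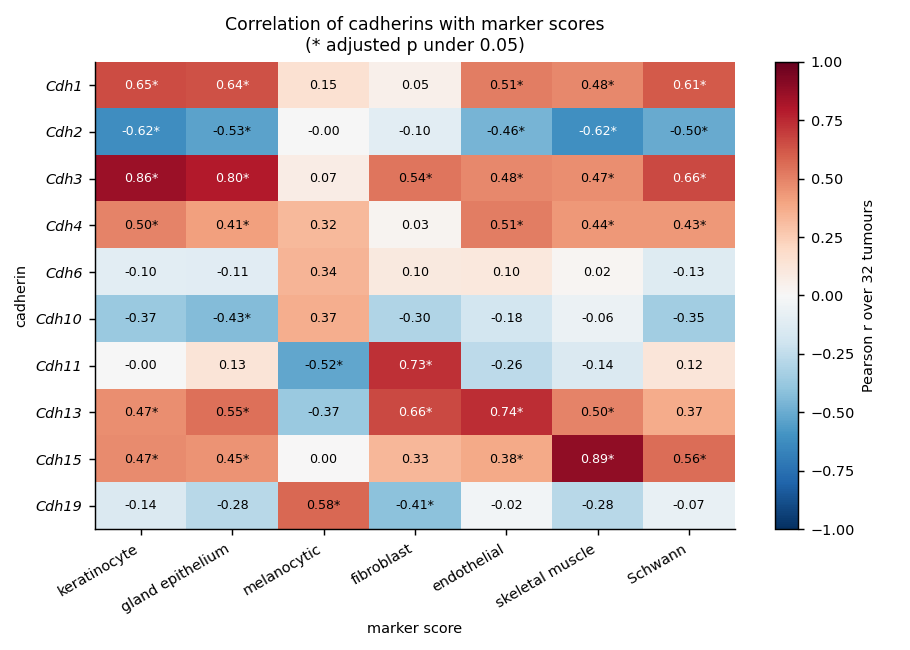
Pearson r over the 32 tumours between each of the 10 cadherins (log2 CPM) and each of 7 marker scores, with red for positive and blue for negative values and a star at an adjusted p under 0.05. Cdh3 with keratinocyte markers and Cdh15 with skeletal muscle markers are the darkest cells, and r of Cdh2 is below 0 with all 7 scores, though close to 0 with the melanocytic score.

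The tested genes whose pattern over the 32 tumours was most like that of each member were found by Spearman rho of log2 CPM, as a description. For Cdh3 they were Grhl3 (0.929), an epidermal transcription factor, Serpinb11 (0.926) and Esrp2 (0.924), an epithelial splicing regulator. For Cdh15 they were Trim54 (0.944), a muscle protein, Myf6 (0.938), a muscle transcription factor, and Pdlim3 (0.937). For Cdh11 they were Ror2 (0.910), a receptor for Wnt ligands, Colec12 (0.872) and Postn (0.859), a matrix protein of fibroblasts. Those nearest to Cdh1 were Arhgef16 (0.821), Arrdc2 (0.812) and Gm12352 (0.808), and those nearest to Cdh2 were Glg1 (0.880), Mtmr9 (0.870) and Fbxw11 (0.865). Those nearest to Cdh13 were Itga3 (0.872), an integrin subunit, Arhgef15 (0.872) and Adcy4 (0.868). For Cdh19 they were Tnik (0.812), Gm38255 (0.787), which overlaps it, and Polr3f (0.785). The genes nearest to the low members reached 0.815 for Cdh4 (Stard10), 0.833 for Cdh6 (Lin7a) and 0.762 for Cdh10 (Klhl30). No member was among the 3 nearest genes of another member.

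Partners and regulators of the cadherins were counted in the same fit. Over all genes, 0.0113% were called in both sexes together, 0.0% in males and 1.2% in females. An unadjusted p under 0.05 was reached by 9.88%, 10.2% and 15.3% of all genes in the same order. Of 10 other classical cadherins 4 were tested (Cdh5, Cdh9, Cdh20 and Cdh24), and 0 were called between ΔEcad and Ecad tumours in both sexes together, in males or in females, with 0, 1 and 1 at an unadjusted p under 0.05. The 2 with the smallest p in both sexes together were Cdh20 (0.94, SE 1.00, edgeR adjusted p = 0.802) and Cdh24 (-0.31, SE 0.34, edgeR adjusted p = 0.810). Of 7 catenins 6 were tested and 0 were called in the same 3 comparisons, with 0, 0 and 1 at an unadjusted p under 0.05. Those with the smallest p were Jup, the gene of plakoglobin (0.66, SE 0.50, edgeR adjusted p = 0.693), and Ctnnd1, which stabilises cadherins at the membrane (0.18, SE 0.22, edgeR adjusted p = 0.840).

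Of 6 transcription factors of the epithelial to mesenchymal transition, some of which are known to repress Cdh1, 0 of 6 were called in the same 3 comparisons in edgeR. At an unadjusted p under 0.05 there were 2, 1 and 2 of these factors, against 9.88%, 10.2% and 15.3% of all genes. The 2 with the smallest p in both sexes together were Snai1 (1.72, SE 0.57, edgeR adjusted p = 0.309) and Twist2 (1.97, SE 0.72, edgeR adjusted p = 0.386). Snai1 was highest in ΔEcad female 3 (533 TPM, the median of all tumours being 16.5 TPM), the tumour with the lowest Cdh1 and the highest Cdh11 and Cdh2. Twist2 was highest in ΔEcad male 7 (203 TPM, the median of all tumours being 3.36 TPM), the tumour with the lowest Cdh19 and the highest Cdh13.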

How the data were processed

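RNA of 32 tumours was extracted with the miRNeasy kit, and stranded libraries of polyadenylated RNA were made from it with the TruSeq kit. The authors aligned the reads with STAR to the mouse genome (GRCm38.p5, mm10, GENCODE annotation) and deposited raw counts per gene, and the submitters' notes also name FastQC 0.11.5. They also deposited TPM, which the authors made from the same libraries by scaling for transcript length and library total; the notes mention batch correction where applicable, without saying whether it was used here. Symbols and coordinates were taken from a GENCODE annotation of GRCm38 (50376 of 50600 identifiers matched). Total counts were 24036333 to 63923086, so that 1 count was a small part of any member except Cdh6, Cdh10 and other members near 0.

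Counts were tested with edgeR 4.0.16 (R 4.3.3; TMM, low-count filter by group, quasi-likelihood fit over all 32 tumours with 1 coefficient per group), two-sided, with Benjamini-Hochberg adjustment over 17717 genes, a threshold of 0.05 and a log2 fold change of 1. Levels between genes are in TPM, with a pseudocount of 0.1 where logged. Relations used log2 CPM with a prior count of 1 and permutation tests (numpy 2.4.6, scipy 1.17.1), exact within groups of 8. DESeq2 1.42.0, limma 3.58.1, another filter and scaling, a replicate block, marker scores as covariates, and fits without single tumours were alternatives. The scripts were tested on simulated data. All 10 members were named, and of the other lists the genes called or the 2 with the smallest p. The 3 genes most like a member were taken by Spearman rho. The members and lists were chosen with earlier results of these data known. Labels do not say whether the tumours of a group came from separate mice, so p-values measure the spread between these samples.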

Additional observations from a re-analysis of the deposited data

Results flagged for a closer look

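Within groups of 8 tumours, the lowest or highest log2 CPM of each member was tested for a gap to its nearest neighbour by Dixon's criterion at the 95% level, over 40 groups of values. Chance flags about 1 in 20 such groups, and 1 of 40 was flagged. Cdh13 in ΔEcad female 3 was low at 0.117 log2 CPM (0.32 TPM), where the next lowest ΔEcad female had 2.73 TPM. The endothelial score of that tumour was -1.25, where the group median was 5.18, and its part in the low Cdh13 was not tested.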

How the results depend on the processing

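Across the alternatives other than leaving out 1 tumour, 517 log2 fold changes of members kept their direction and their side of the threshold, 50 took the opposite sign and 6 passed the threshold where the reported value did not. All 6 were DESeq2 calls: 2 members between the genotypes in females, 1 in males, 2 in the interaction and 1 between the sexes in Ecad tumours, against 0 in edgeR. The cause of the changes below was not tested.

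With DESeq2 the value was 0.076 for Cdh1 in females, -1.47 for Cdh6 in males, -1.68 for Cdh11 in the interaction, and 2.16 for Cdh6 and -1.52 for Cdh11 between the sexes in ΔEcad tumours. Cdh1 in females was also 0.076 with the RLE size factors and 0.088 without the low-count filter. With voom it was 0.93, Cdh4 in both sexes was -0.61, Cdh10 in males -1.26, the interaction of Cdh11 -0.59, Cdh11 between the sexes -0.078 in Ecad and -0.67 in ΔEcad tumours, and Cdh6 between the sexes in ΔEcad tumours 0.88. With limma on log2(TPM + 0.1), both sexes gave -0.14 for Cdh2 and -0.30 for Cdh4, males gave -0.59 for Cdh6, -0.0074 for Cdh10, -0.25 for Cdh13 and -0.63 for Cdh19, the interaction of Cdh6 was 0.34, Cdh11 between the sexes was -0.16 in Ecad and -0.043 in ΔEcad tumours, and between the sexes in ΔEcad tumours Cdh6 was 0.61 and Cdh19 was 0.061.

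With the keratinocyte and melanocytic scores as covariates, both sexes gave 0.49 for Cdh6 and 0.01 for Cdh19, females gave 0.030 for Cdh2, 0.56 for Cdh6 and -0.36 for Cdh15, the interaction of Cdh6 was 0.14, the sexes of Ecad tumours gave 0.87 for Cdh1, -0.60 for Cdh11 and 0.34 for Cdh15, and those of ΔEcad tumours gave 1.46 for Cdh6. Without ΔEcad male 2, ΔEcad male 7 and ΔEcad female 3, Cdh2 in both sexes was -0.13, Cdh1 in females 0.18, Cdh13 in males -0.10, the interaction of Cdh11 -0.020 and Cdh13 between the sexes in ΔEcad tumours 0.38.

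Replicate numbers did not pair the tumours, since deviations of 48 same-numbered pairs had a mean r of -0.000584 and 18 of 48 were over 0.1, and 9 of 96 best matches in another group had the same number. With the replicate block, 0 members were called, as without it. The block gave 0.70 for Cdh1 and 0.10 for Cdh6 in females, -1.75 for Cdh6, -0.28 for Cdh10 and -0.17 for Cdh19 in males, 1.85 for Cdh6 and -0.67 for Cdh11 in the interaction, -0.45 for Cdh6 between the sexes in Ecad tumours, and 1.399 for Cdh6 and -0.034 for Cdh11 between those of ΔEcad tumours.

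For fits without 1 tumour the share of all genes called is not given here, so their counts of members have no background. Leaving out each tumour in turn gave 0 to 1 called members in females, 0 to 2 in the interaction and 0 in the other 4 comparisons. Its range passed 0 for Cdh1 in females (-0.39 to 0.34), for Cdh2 (-0.15 to 0.26), Cdh4 (-0.56 to 1.26), Cdh6 (-1.49 to 0.087) and Cdh15 (-1.32 to 0.38) in both sexes, and for Cdh6 (-1.44 to 1.67), Cdh10 (-0.59 to 1.397), Cdh13 (-0.13 to 0.75) and Cdh19 (-0.15 to 0.38) in males. It also did so for Cdh11 in the interaction (-1.71 to 1.52) and between the sexes of Ecad tumours (-0.031 to 0.46), and in ΔEcad tumours for Cdh6 (-1.02 to 2.21), Cdh11 (-1.53 to 1.70) and Cdh13 (-0.69 to 0.23). ΔEcad female 3 and ΔEcad male 7 set the ends of the interaction of Cdh11.

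The tally of relations covered those of Cdh1 with the other members and those with marker scores that passed. It left out the pairs without Cdh1. Of these relations, 224 values under an alternative kept their sign and side of the threshold, 41 no longer passed and 2 newly passed. The r of Cdh1 with Cdh19 was -0.030 for values centred within groups and -0.186 without the 3 libraries, and that of Cdh1 with Cdh11 was 0.014 without them. With log2(TPM + 1), 3 of 9 neighbours in the order of levels were resolved, against 1.

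Over all genes, the number called between the genotypes in females was 213 in edgeR, 1281 in DESeq2, 322 with the RLE size factors, 555 without the filter, 569 without the 3 libraries and 101 without ΔEcad male 2. It was 8 with the scores as covariates, and 1 each with voom, limma on TPM, the replicate block and a fit of the females alone. In DESeq2 66 genes were called in both sexes together, 21 in males and 1225 in the interaction, against 2, 0 and 0 in edgeR. The interaction had 201 with RLE and 284 without the filter. Between the sexes DESeq2 called 1023 genes in Ecad and 24 in ΔEcad tumours, against 9 and 7 in edgeR.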
